A study of Caenorhabditis elegans
Pristionchus pacificus with 6 samples.

Results

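The 10 genes described here are germline and oocyte genes of the nematode Caenorhabditis elegans, measured in dissected intestine, where they show how much gonad RNA may have come along with the tissue. They were chosen by name and identifier: glp-1 (WBGene00001609), gld-1 (WBGene00001595), glh-1 (WBGene00001598), pgl-1 (WBGene00003992), pgl-3 (WBGene00003994), oma-1 (WBGene00003864), oma-2 (WBGene00003865), rme-2 (WBGene00004374), pie-1 (WBGene00004027) and pos-1 (WBGene00004078). They are 10 of 73268 rows in a count table that covers 2 species, and 10 of the first 46958 rows, which were taken as C. elegans. All 10 passed the filter on low counts, which kept 8309 C. elegans genes. Levels are given per 1000000 C. elegans counts (CPM). Transcript lengths were not used here, so levels are compared between libraries and not between genes.

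RNA of anterior intestines from adult hermaphrodites was sequenced in 3 libraries of the CDK-2gut(-) strain, whose intestinal ploidy is reduced, and in 3 libraries of a control strain with normal ploidy. The CDK-2gut(-) strain carried the transgene asp-1p::vhhGFP4::zif-1 together with the tagged gene cdk-2::ZF::GFP and the mutation zif-1(gk117), and the control strain carried cdk-2::ZF::GFP and zif-1(gk117). From the asp-1 promoter the transgene makes ZIF-1, a degradation adaptor, joined to a nanobody that binds the GFP on CDK-2. Worms grew at 20 °C and were dissected 72 hours after egg laying, and an equal amount of lysate from intestines of Pristionchus pacificus, dissected at 96 hours, was added to every C. elegans lysate as a spike-in. Intestines were pooled into lysates. Separate cultures are not mentioned in the labels, so each p-value reflects the spread among these libraries, and that spread may be technical.

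The hermaphrodite gonad lies alongside the intestine and is a tube in which germ cells mature from one end to the other. Stem cells divide at the distal end under Notch signalling, their descendants enter meiosis and grow into oocytes, and fertilised eggs then pass to the uterus. Germ cells carry P granules, perinuclear bodies of RNA and protein, and oocytes load transcripts that serve the embryo before its own genome is active. These genes are therefore known as markers of the gonad, its oocytes and the early embryos inside an adult.

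Transcripts of these genes were counted in all 6 libraries, at levels that differed far more between libraries than between strains. Summed over the 10 genes, the level was 182, 99.6 and 46.5 CPM in CDK-2gut(-) 1, 2 and 3, against 52.9, 222 and 3.49 CPM in control 1, 2 and 3. The highest and the lowest library were thus both controls. CDK-2gut(-) averaged 109 ± 68.3 CPM and control 92.7 ± 114 CPM (SD, n = 3 each). As a share of C. elegans counts, the sum ran from 0.00465% to 0.0182% in CDK-2gut(-) and from 0.000349% to 0.0222% in control.

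Control 3 stood apart from the other 5 libraries. It held 35 counts from the 10 genes among 10041636 C. elegans counts, and its exact 95% Poisson interval of 2.43 to 4.85 CPM lay far below the next lowest library. That was CDK-2gut(-) 3, with 524 counts and an interval of 42.6 to 50.6 CPM, 13.3 times the level of control 3 (interval of the ratio, 9.47 to 19.4). CDK-2gut(-) 3 and control 1 (interval 48.4 to 57.8 CPM) were the only neighbours in the order of libraries whose counting intervals overlapped. Control 2 stood at 63.6 times control 3 (interval 45.6 to 91.5) and at 4.19 times control 1 (interval 3.80 to 4.62), while CDK-2gut(-) 1 stood at 3.92 times CDK-2gut(-) 3 (interval 3.57 to 4.31). These intervals cover counting error only. Reads were counted without molecular identifiers, so repeated reads of one molecule could make the intervals too narrow.

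**Figure D1:**
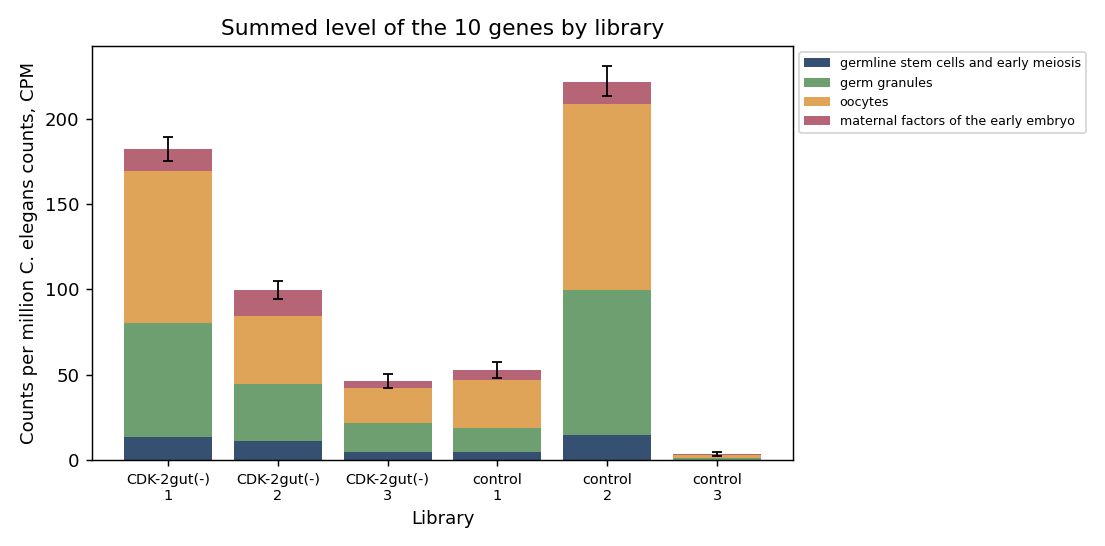
Summed level of the 10 germline and oocyte genes in CPM of C. elegans counts (vertical axis) in each library (horizontal axis), stacked by role, with the exact 95% Poisson interval of the sum as a black bar. The CDK-2gut(-) libraries lie between 46.5 and 182 CPM, while the controls hold both the highest bar, 222 CPM, and the lowest, 3.49 CPM.

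The order of the libraries was the same when levels were set against the spike-in. Per 1000000 P. pacificus counts, the 10 genes stood at 944.5, 459.6 and 129 in CDK-2gut(-) 1, 2 and 3, against 283.2, 999.8 and 9.67 in control 1, 2 and 3. This ratio varied between libraries more than the CPM did. The spike-in made up a larger part of both libraries numbered 3, with 2.78 C. elegans counts per P. pacificus count in each, against 4.51 to 5.35 in the other 4 libraries. Within each strain, all 10 genes also had their lowest CPM in the library numbered 3. How many of all genes tested follow that order was not counted, and a cause shared by the libraries numbered 3 was not tested. The total depth ran from 15302343 to 18934522 counts in CDK-2gut(-) and from 11194766 to 13659789 counts in control. The 10 most abundant C. elegans genes took 53.99% to 55.8% of C. elegans counts in CDK-2gut(-) and 60.4% to 66.4% in control, which lowers the CPM of every other gene more in control. The intestinal identity of the tissue was not checked against its markers here, since the file's identifiers are not paired with symbols.

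Both genes grouped by role under germline stem cells and early meiosis were lowest in control 3. The Notch receptor gene glp-1, which keeps germline stem cells dividing, stood at 6.36, 5.57 and 2.04 CPM in CDK-2gut(-) 1, 2 and 3, against 3.82, 7.69 and 0.299 CPM in control 1, 2 and 3. Control 3 rested on 3 counts, and control 2 was 25.7 times as high (95% interval of the count ratio, 8.5 to 127). The gene gld-1 encodes an RNA-binding protein that represses translation in early meiosis. It stood at 7.56, 5.73 and 2.93 CPM in CDK-2gut(-), against 1.06 and 7.41 CPM in control 1 and 2 and 0 counts in control 3. Set to a floor of 3 counts, control 3 would stand at 0.299 CPM, and control 2 was 24.8 times that floor (lower 95% limit of the count ratio, 19.7). The exact 95% Poisson interval of 0 counts there reached 0.367 CPM. For both genes the 2 strains overlapped.

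Genes of the P granules differed widely between libraries. The helicase gene glh-1, whose protein is a core part of these granules, stood at 43.3, 17.9 and 11.5 CPM in CDK-2gut(-) 1, 2 and 3, against 7.10, 50.9 and 0.598 CPM in control 1, 2 and 3. Its ratio of control 2 to control 3 was 85.2 (interval 38.9 to 233). The scaffold protein genes pgl-1 and pgl-3 each had a single count in control 3, or 0.0996 CPM. In the other libraries pgl-1 stood at 14.1, 10.97 and 3.02 CPM in CDK-2gut(-), against 5.09 and 16.4 CPM in control 1 and 2. The level of pgl-3 was 9.26, 4.53 and 2.40 CPM in CDK-2gut(-), against 1.80 and 17.3 CPM in control 1 and 2. Control 2 exceeded control 3 by a factor of 165 for pgl-1 (interval 29.2 to 6540) and 173 for pgl-3 (interval 30.7 to 6880), so the single count leaves the size of these ratios very uncertain. In CDK-2gut(-) the 3 granule genes followed the same order of libraries, with library 1 at 3.75 to 4.66 times library 3.

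Oocyte genes supplied the most counts of any role, through rme-2 with 2900 over all libraries. The genes oma-1 and oma-2 gave 340 and 342, each fewer than any P granule gene. These are raw counts, which also depend on transcript length, so they do not rank the genes or roles by amount of RNA. The gene rme-2 encodes the receptor through which oocytes take up yolk made by the intestine. It stood at 72.8, 29.1 and 13.8 CPM in CDK-2gut(-) 1, 2 and 3, against 19.3, 96.5 and 1.195 CPM in control 1, 2 and 3. With 1677 counts in CDK-2gut(-) and 1223 in control, rme-2 alone gave 29.2% to 43.5% of the 10 genes' counts in a library. The zinc-finger genes oma-1 and oma-2 act together in the last steps of oocyte maturation. The level of oma-1 was 8.44, 5.73 and 3.02 CPM in CDK-2gut(-), against 3.18, 6.47 and 0.0996 CPM in control. The level of oma-2 was 7.43, 4.85 and 3.81 CPM in CDK-2gut(-), against 5.73, 5.72 and 0.498 CPM in control. Unlike rme-2, which was 5.0 times as high in control 2 as in control 1 (interval 4.27 to 5.89), oma-2 was at the same level in both (ratio 0.999, interval 0.681 to 1.47).

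The maternal factors pie-1 and pos-1 are zinc-finger genes whose products act in the early embryo. The level of pos-1 was 11.5, 13.4 and 3.903 CPM in CDK-2gut(-) 1, 2 and 3, against 4.13, 11.3 and 0.598 CPM in control 1, 2 and 3. It was the one member of the 10 with its highest level in CDK-2gut(-) 2, where its counting interval overlapped that in CDK-2gut(-) 1. The gene pie-1, whose product keeps transcription off in the germline lineage, had 22, 23 and 1 counts in CDK-2gut(-), against 16, 20 and 0 counts in control. The corresponding levels were 1.39, 1.83 and 0.0887 CPM in CDK-2gut(-), against 1.70 and 1.88 CPM in control 1 and 2. It was thus close to the limit of detection in both libraries numbered 3. Both pie-1 and glp-1 overlap another gene in the RefSeq gene table, so their counts are less certain. ZIF-1 recognises a zinc finger of PIE-1, and degradation tags named ZF are commonly copies of that finger. The sequence of the tag on cdk-2, which both strains carry, is not stated in the labels. Whether reads of that tag were counted under pie-1 was not tested.

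**Figure D2:**
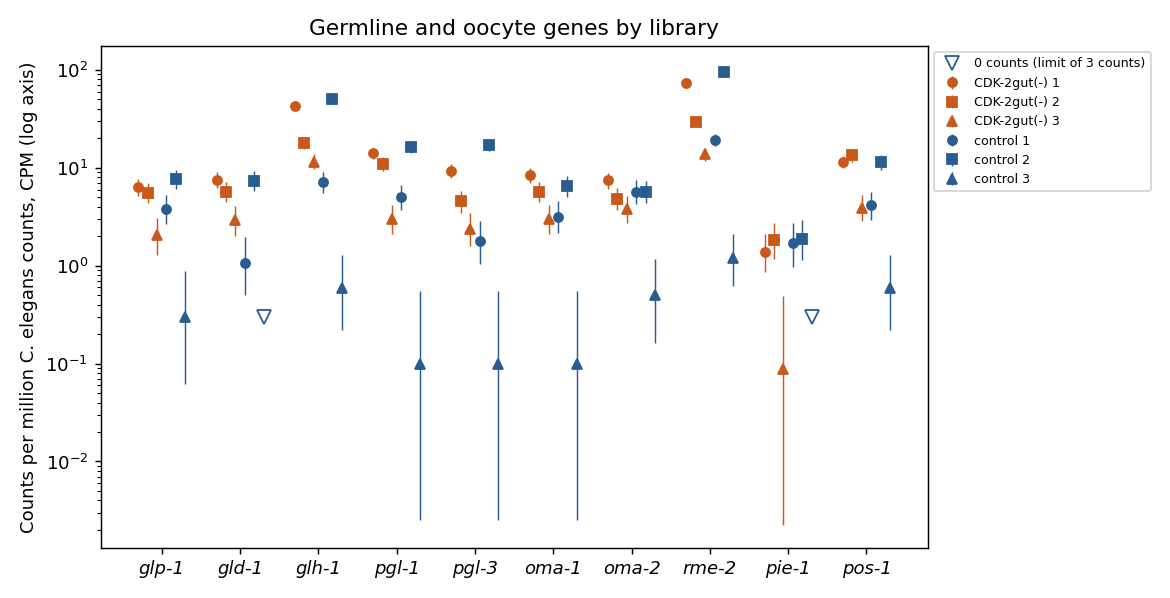
Level of each of the 10 genes (horizontal axis) in CPM of C. elegans counts (log axis). Points are libraries with exact 95% Poisson intervals, and open triangles mark 0 counts at the limit of 3 counts. Control 3 has the lowest CPM for every gene, at or below 1.195 CPM. For pie-1 its triangle lies above the point of CDK-2gut(-) 3, which rests on 1 count.

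All 10 genes had their lowest level in control 3, though for pie-1 this was 0 counts against 1 count in CDK-2gut(-) 3. The lowest level fell in control 3 for 42.9% of all C. elegans genes tested. The lowest place alone is thus a common pattern, so the size of the gap is given too. Control 3 and the library pairs below were taken as extremes of the 10 genes' own sum. High ratios of the 10 genes are therefore built in, and the values over all genes tested serve as a scale only. With counts under 3 set to 3, each other library was at least 5 times as high as control 3 for 8 of the 10 genes and for 2.47% of all genes tested. The exceptions were gld-1, which had 10 counts in control 1, and pie-1, which had 1 count in CDK-2gut(-) 3. Control 2 was at least 10 times as high as control 3 for 9 of the 10 genes, pie-1 being the exception, against 5.07% of all genes tested. The highest level fell in control 2 for 6 genes, in CDK-2gut(-) 1 for gld-1, oma-1 and oma-2, and in CDK-2gut(-) 2 for pos-1. Over all genes tested it fell in these 3 libraries for 16.3%, 36.1% and 20.5%. Some of these places lie within counting error, as for gld-1 at 7.56 CPM in CDK-2gut(-) 1 and 7.41 CPM in control 2. With the same floor of 3 counts, the log2 ratio of CDK-2gut(-) 1 to CDK-2gut(-) 3 was between 0.96 and 2.41 for the 10 genes, with a median of 0.26 over all genes tested. Within control, the log2 ratio of library 2 to library 3 was between 2.65 and 6.41 for the 10 genes, with a median of 0.36 over all genes tested.

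**Figure D3:**
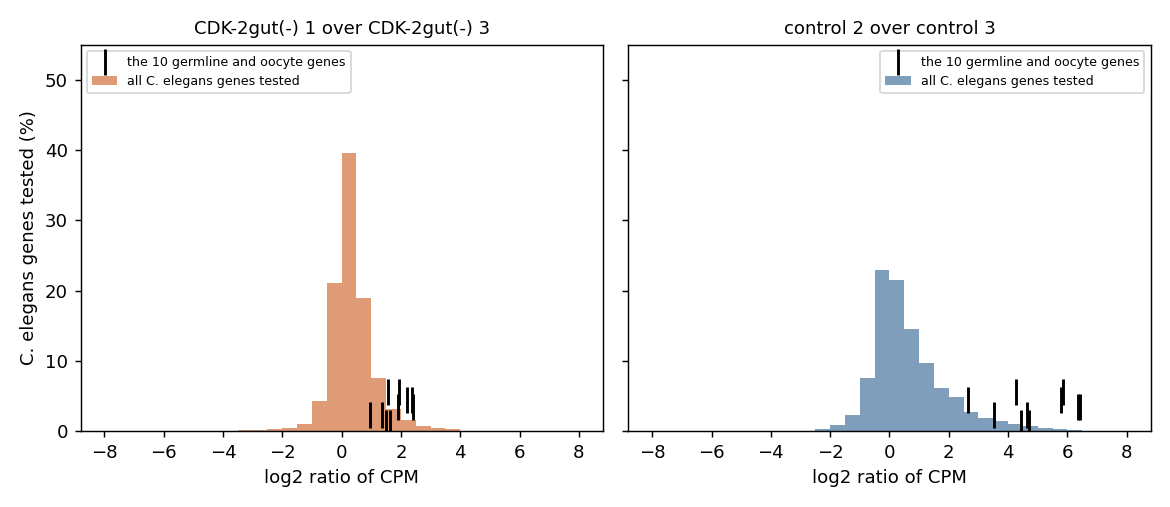
Distribution of the log2 ratio of CPM between 2 libraries of one strain over the C. elegans genes tested (bars, percent of genes), with the 10 germline and oocyte genes as black ticks whose height has no meaning. Left, CDK-2gut(-) 1 over 3, where the ticks lie between 0.96 and 2.41. Right, control 2 over 3, where they lie between 2.65 and 6.41. Each pair holds the highest and the lowest library of its strain by the 10 genes' sum, so ticks to the right are built in.

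The make-up of the 10 genes' counts was broadly alike between libraries without being constant. P granule genes gave 36.6%, 33.5% and 36.5% of the 10 genes' counts in CDK-2gut(-) 1, 2 and 3, against 26.5%, 38.2% and 22.9% in control 1, 2 and 3. The oocyte genes gave 48.7%, 39.8% and 44.3% in CDK-2gut(-), against 53.3%, 49.0% and 51.4% in control. The maternal factors gave 7.06%, 15.3% and 8.59% in CDK-2gut(-), against 11%, 5.97% and 17.1% in control. Some of these differences exceeded their counting intervals, which may be too narrow. In control 1, glh-1 gave 13.4% of the counts (exact 95% Clopper-Pearson interval, 10.6 to 16.7) and oma-2 gave 10.8% (8.23 to 13.9). In control 2, glh-1 gave 23.0% (21.3 to 24.7) and oma-2 gave 2.58% (1.98 to 3.30). In CDK-2gut(-) 2, pos-1 gave 13.5% (11.6 to 15.5), against 5.12% (4.27 to 6.09) in control 2. Control 3, with 35 counts in all, was too shallow for such a comparison.

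**Figure D4:**
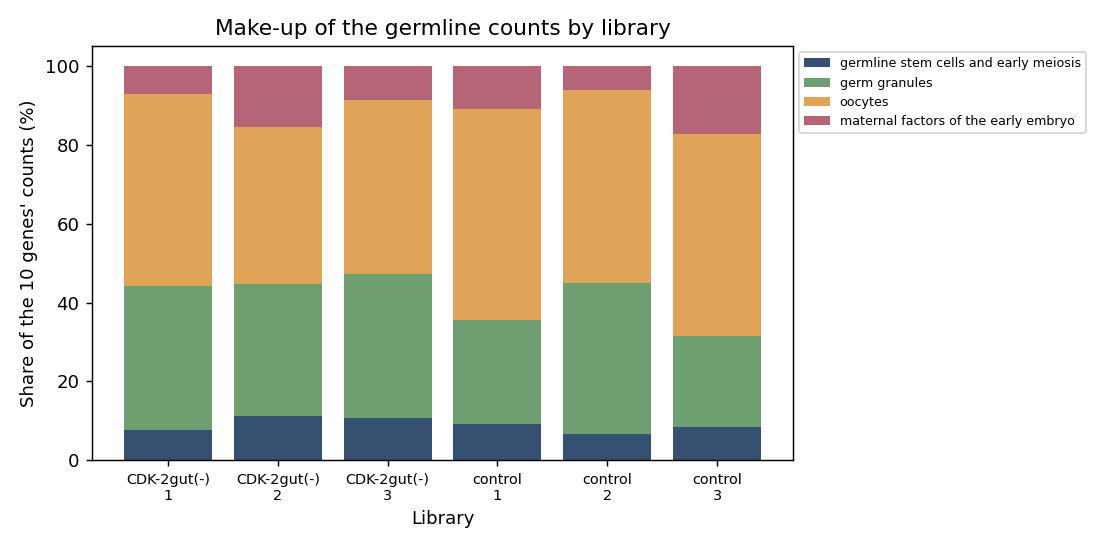
Share of the 10 genes' counts taken by each role (vertical axis, percent) in each library (horizontal axis). Oocyte genes hold 39.8% to 48.7% in CDK-2gut(-) and 49.0% to 53.3% in control, and maternal factors range from 5.97% in control 2 to 17.1% in control 3, which rests on 35 counts.

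None of the 10 genes was called different between the strains. The share-based fit multiplied C. elegans totals by TMM factors, so it sets each gene against the bulk of C. elegans genes. It used the quasi-likelihood test of edgeR, with Benjamini-Hochberg adjustment over 8309 genes. At an adjusted p under 0.05 in edgeR, 0 of 10 genes were called, against 18.6% of all genes tested. An unadjusted p under 0.05 was reached by 0 of 10. DESeq2 and limma-voom also called 0, with 0 at an unadjusted p under 0.05. The lowest adjusted p among the 10 was 0.792 in edgeR, and the log2 folds of CDK-2gut(-) over control lay above 0 for 5 genes and below 0 for 5. Their median was -0.00012, beside 0.10 over all genes tested. The 2 strains overlapped in CPM for all 10 genes, while CDK-2gut(-) lay wholly above control for 39.0% of all genes tested and wholly below it for 6.5%. These CPM carry no TMM scaling. Over all genes tested, 77.1% of log2 folds lay above 0 with plain totals and 55.9% with TMM. Plain totals measure the share of C. elegans counts itself. There 7 of the 10 genes lay above 0, with a median log2 fold of 0.34, and 0 were called (edgeR).

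These tests leave room for large differences in either direction. The narrowest 95% interval was that of oma-2, with a log2 fold of 0.046 (interval -1.58 to 1.68, adjusted p = 0.976 in edgeR). The log2 fold of rme-2 was -0.37 (interval -3.98 to 3.25, adjusted p = 0.906 in edgeR). That of gld-1, the highest, was 0.60 (interval -2.36 to 3.57, adjusted p = 0.816 in edgeR), and that of pgl-3, the lowest, was -0.57 (interval -3.98 to 2.85, adjusted p = 0.848 in edgeR). The log2 fold was 0.49 for pos-1, 0.45 for oma-1, 0.023 for pgl-1, -0.023 for glh-1, -0.12 for glp-1 and -0.49 for pie-1. The spread behind these intervals was unusual: the median biological coefficient of variation was 1.05 over the 10 genes and 0.338 over all genes tested, and each of the 10 was more variable than at least 89.3% of them.

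Scaled to the spike-in, which asks for the level per P. pacificus count, 0 of 10 genes were called as well, against 18.9% of all genes tested, with 0 at an unadjusted p under 0.05 in edgeR, DESeq2 and limma-voom. The log2 folds lay between -0.14 and 1.01, above 0 for 8 of the 10, with a median of 0.42 beside 0.55 over all genes tested. The lowest adjusted p was 0.598 (edgeR). With the replicate number as a block, since the numbers paired the libraries over P. pacificus genes, the log2 folds were above 0 for all 10 genes, with a median of 1.24. With that block 0 were again called, with 1 gene, pos-1, at an unadjusted p under 0.05 and an adjusted p of 0.103 (edgeR).

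**Figure D5:**
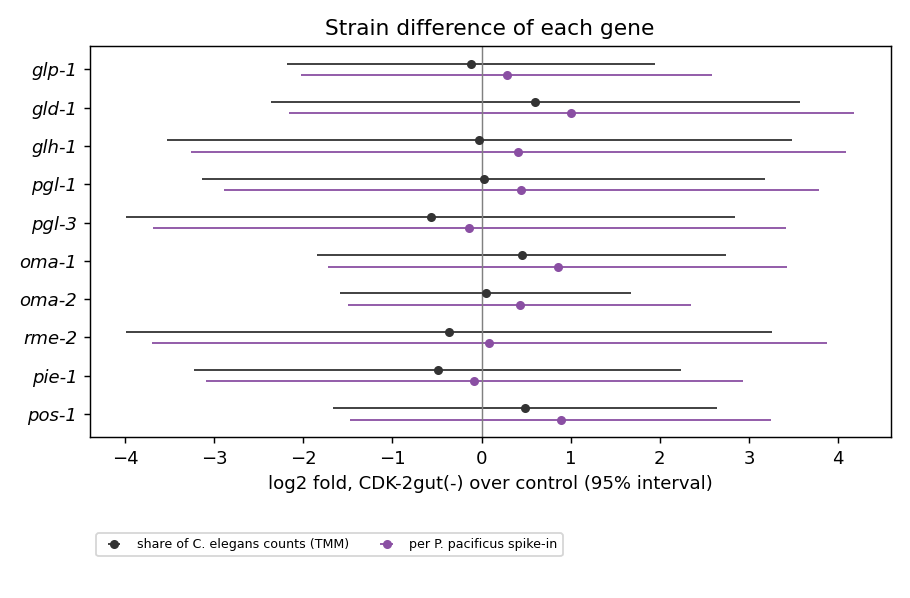
Log2 fold of CDK-2gut(-) over control for each of the 10 genes (points) with 95% intervals (lines). Black marks the share-based fit, with C. elegans totals times TMM factors, and purple the level per P. pacificus spike-in. Every interval includes 0, and the narrowest in the black set, that of oma-2, runs from -1.58 to 1.68.

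The direction of the strain difference depended on which libraries were included, and on the tool. Without control 3, the share-based log2 folds were below 0 for 9 of the 10 genes, with a median of -0.56, and without control 2 they were above 0 for 9 of the 10, with a median of 1.29. Without CDK-2gut(-) 1 they were below 0 for 7 of the 10, with a median of -0.33. With limma-voom on all libraries they were above 0 for all 10, with a median of 0.89. Per spike-in, the log2 folds were above 0 for 3 of the 10 genes without control 3, with a median of -0.15, for 4 without CDK-2gut(-) 1, with a median of -0.088, and for all 10 without control 2, with a median of 1.82. Without control 2, gld-1 had an unadjusted p of 0.0233 and an adjusted p of 0.0925 in the share-based edgeR fit, and 0 of the 10 genes were called in either scaling. The summed level gave a log2 ratio of CDK-2gut(-) to control of 0.24 from the mean CPM, -0.34 without CDK-2gut(-) 1, -0.33 without control 3 and 1.96 without control 2. It was -0.10 when C. elegans totals were multiplied by their TMM factors and -0.091 when the 10 most abundant genes were left out of the total. Between libraries of the same number, CDK-2gut(-) stood at 3.44, 0.45 and 13.3 times control for numbers 1, 2 and 3. The numbers were not taken as pairs over C. elegans genes, where deviations in number 2 correlated at -0.0475. Numbers 1 and 3 correlated at 0.122 and 0.205 there, above the bound of 0.1. In pooled tissue, fewer germ cells and less RNA per germ cell cannot be told apart, nor can gonad RNA and low expression of these genes within the intestine. What brought RNA of these genes to each library was not tested.

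Other C. elegans genes had a profile across libraries that correlated with the sum of the 10 genes. Over 3554 other genes with a mean of at least 100 counts, likeness was measured as Pearson's r over the 6 libraries between a gene's log2 CPM and that of the 10 genes' sum, given as a description. It was at least 0.9 for 251 genes. Control 3 lay far below the other libraries in the sum, so it weighs heavily in r. Since control 3 was the lowest library for 42.9% of all genes tested, a high r need not mean the same order elsewhere. The 2 most alike are given by identifier, as the file pairs no symbols with them. WBGene00013214 (r = 0.999) stood at 39.7, 18.4 and 9.23 CPM in CDK-2gut(-) 1, 2 and 3, against 10.8 and 57.2 CPM in control 1 and 2 and 0 counts in control 3. WBGene00011063 (r = 0.997) stood at 43.1, 28.5 and 11.9 CPM in CDK-2gut(-), against 15.3, 72.3 and 0.199 CPM in control.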

How the data were processed

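The authors deposited raw, unnormalized counts per gene for 6 libraries in 1 table. STAR and featureCounts are named in the submitters' processing notes, and multi-mapping reads were excluded, going by the table's name. Neither labels nor file give versions, genome build, annotation or strand setting. Columns were matched to samples through the names repeated in the labels. Species are not marked in the table: the first 46958 rows were taken as C. elegans and the next 26310 as P. pacificus, a boundary inferred from the counts in earlier work. Symbols of the 10 genes were given with their identifiers. The members and lists were chosen with earlier results of these data known. All 10 symbols are protein-coding entries of the RefSeq gene table (WBcel235), where glp-1 and pie-1 overlap another gene, so their counts are uncertain. Near-identical copies would lose reads with multi-mapping reads excluded. None of the file's identifiers occurs in that table, so the 12 marker lists fixed by symbol were not analysed here.

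Tests were edgeR 4.0.16 robust quasi-likelihood fits (R 4.3.3) on all C. elegans genes kept by filterByExpr, with TMM factors over C. elegans genes or with P. pacificus totals times their TMM factors as library size, adjusted by Benjamini-Hochberg at 0.05. The 95% intervals take a standard error from the log2 fold and F, with the fit's degrees of freedom. Fits were tested on simulated data in which all C. elegans genes shared a spread below that of each of the 10. That check therefore does not cover the range of these genes. DESeq2 1.42.0, limma 3.58.1 with voom, plain totals, no filter, another boundary, a block and left-out libraries were alternatives. All 10 genes are named by rule, with the 2 most alike genes (log2 CPM with a pseudocount of 0.5). Deviations from group means of same-numbered libraries correlated at 0.122, -0.0475 and 0.205 over C. elegans genes for numbers 1, 2 and 3, so not every pair passed 0.1. Over P. pacificus genes they correlated at 0.568, 0.581 and 0.848, so a block was added to that fit as an alternative. C. elegans depth ran from 9432973 to 15874554 counts, where 3 counts equal 0.189 to 0.318 CPM.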

Additional observations from a re-analysis of the deposited data

How the results depend on the processing

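In both scalings 0 of the 10 genes were called under all 14 alternatives, which says little where intervals are this wide. The sign of the uncalled share-based log2 folds changed in 33 of 130 comparisons with the values reported, leaving out the stricter threshold, which keeps the same folds, and the cause was not tested. With limma-voom it was 0.47 for glp-1, 1.197 for glh-1, 0.83 for pgl-3, 0.72 for rme-2 and 0.045 for pie-1. It also gave 2.11 for gld-1, with no change of sign. DESeq2 gave -0.054 for pgl-1 and -0.056 for oma-2. Plain totals gave 0.24 for glp-1 and 0.31 for glh-1, and no filter gave 0.013 for glh-1. Without replicate 3 of both strains it was -0.15 for pgl-1 and -0.32 for oma-2. A block on the replicate number was also tried in this share-based fit, where not every number passed as a pair over C. elegans genes. With it the log2 fold was 0.33 for glp-1, 1.25 for glh-1, 0.71 for pgl-3 and 0.74 for rme-2. Leaving out single libraries gave -0.67 to 0.59 for glp-1, -0.63 to 2.05 for glh-1, -0.55 to 1.26 for pgl-1, -1.13 to 1.90 for pgl-3, -0.12 to 1.22 for oma-1, -0.48 to 0.45 for oma-2, -1.10 to 1.31 for rme-2, -1.08 to 0.020 for pie-1, -0.036 to 1.42 for pos-1 and, with no change of sign, 0.034 to 2.74 for gld-1. The log2 ratio of the summed level lay between -0.34 and 1.96 on leaving out single libraries. It was 0.40 without rme-2, 0.24 without pie-1, 0.25 per P. pacificus count and 1.46 as a difference of mean log2 values, which was chosen after the data were seen. Over all genes tested, share-based calls ran from 507 to 1830 higher and 257 to 819 lower, beside 980 and 568, and spike-in-scaled calls from 685 to 1757 higher and 109 to 264 lower, beside 1365 and 205. All 10 genes passed the filter, so the tests planned for genes below it were not run. Few counts limit the values of control 3, where 8 of the 10 genes were detected at 35 counts in all, although its C. elegans depth, 10041636 counts, was above that of control 1, 9432973 counts.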

Other observations

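The gap between control 3 and the other libraries extended beyond the 10 genes. With counts under 3 set to 3, there were 205 C. elegans genes of 8309 tested for which each other library was at least 5 times as high as control 3. They include 8 of the 10 genes described here. The same rule gave 0, 16 and 0 genes for CDK-2gut(-) 1, 2 and 3, and 2 and 4 genes for control 1 and 2. At a factor of 10 it gave 59 genes for control 3, with 4 of the 10 among them, and at most 2 for any other library. Of the 205 genes, 4 were called between strains in the share-based fit (edgeR, adjusted p under 0.05), against 18.6% of all genes tested. Since these genes were picked for a wide gap within the control strain, which widens the spread in that test, nothing is read from this difference. In the other direction, 0 genes stood in control 3 at least 5 times as high as in each other library, and 19 did so in CDK-2gut(-) 3. Between control 2 and control 3 alone, 421 genes, with 9 of the 10 among them, were at least 10 times as high in control 2 and 2 genes the reverse. These counts were made after the values of the 10 genes were seen.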
